A study of Mus musculus with 4 samples.

Results

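The 10 genes described here carry the Hippo pathway from its kinases to the nucleus: the co-activators Yap1 and Wwtr1 (whose protein is TAZ), the transcription factors Tead1, Tead2, Tead3 and Tead4, the kinases Lats1 and Lats2, and the angiomotin family genes Amotl1 and Amotl2. They were chosen by symbol as genes of the pathway, with earlier results of these data known, and all 10 are among the 24421 symbols of the count table. Fibro-adipogenic progenitors (FAPs), the stromal progenitors of skeletal muscle, were sorted from wild-type mice that had received a CSF1R inhibitor for 3 weeks and then a regular diet for 3 days. DPPIV- and DPPIV+ FAPs, gated as PI- CD31- CD45- Sca1+ cells without or with DPPIV on their surface, came from the same 2 mice, giving 1 library of each population per mouse and 4 bulk RNA sequencing libraries in all. The comparison asks how the DPPIV+ FAPs differed from the DPPIV- FAPs of the same animal at a time when resident macrophages had been depleted. Both populations share the treatment, and no untreated mouse was analysed here, so differences made by the inhibitor cannot be told apart from those of the resting populations.

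In the Hippo pathway, the kinases MST1 and MST2 (genes Stk4 and Stk3) with their partner SAV1 activate LATS1 and LATS2, which phosphorylate YAP and TAZ and keep them out of the nucleus. YAP and TAZ that escape this phosphorylation bind the TEAD proteins on DNA and turn on genes for matrix, cytoskeleton and growth, and angiomotins hold YAP and TAZ in the cytoplasm and assist LATS. In fibroblasts and other stromal cells the pathway is known for responding to cell shape, crowding and matrix stiffness, and much of its control acts on proteins and not on transcripts.

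The loci are given on GRCm38 (mm10) with their strand, from GENCODE M21. The co-activator genes are Yap1 at chr9:7931999-8004596 (minus) and Wwtr1 at chr3:57455649-57575910 (minus). The TEAD genes are Tead1 at chr7:112679318-112906807 (plus), Tead2 at chr7:45215753-45233644 (plus), Tead3 at chr17:28331671-28350817 (minus) and Tead4 at chr6:128224288-128300823 (minus). The kinase and angiomotin genes are Lats1 at chr10:7681214-7716460 (plus), Lats2 at chr14:57689662-57758388 (minus), Amotl1 at chr9:14541966-14645056 (minus) and Amotl2 at chr9:102716672-102733418 (plus). The deposited values are per gene and do not resolve isoforms.

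TEAD proteins bind the letters GGAATG, or CATTCC when read on the other strand. The sequences upstream of the 4 genes that were lower in DPPIV+ FAPs and passed the test, Yap1, Wwtr1, Tead2 and Tead3, and of Vgll3, a TEAD co-factor gene that moved most among the other pathway genes, are printed to show where these letters stand. They are the 250 bases before a RefSeq transcription start on GRCm38.p6, without the bases covered by an annotated exon, and are written 5′ to 3′ on the strand of the gene. Capitals mark GGAATG or CATTCC.
Yap1 (chr9:8004639-8004846, minus strand): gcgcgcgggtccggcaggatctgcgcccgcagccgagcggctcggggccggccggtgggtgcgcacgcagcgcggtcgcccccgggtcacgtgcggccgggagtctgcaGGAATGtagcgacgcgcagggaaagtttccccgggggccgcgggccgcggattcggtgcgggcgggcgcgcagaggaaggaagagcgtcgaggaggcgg
Wwtr1 (chr3:57575911-57576160, minus strand): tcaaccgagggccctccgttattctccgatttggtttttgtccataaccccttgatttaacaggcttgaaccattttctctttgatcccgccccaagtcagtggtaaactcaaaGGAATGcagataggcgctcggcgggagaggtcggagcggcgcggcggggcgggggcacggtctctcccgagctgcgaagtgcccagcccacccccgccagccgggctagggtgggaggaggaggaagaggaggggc
Tead2 (chr7:45215542-45215752, plus strand): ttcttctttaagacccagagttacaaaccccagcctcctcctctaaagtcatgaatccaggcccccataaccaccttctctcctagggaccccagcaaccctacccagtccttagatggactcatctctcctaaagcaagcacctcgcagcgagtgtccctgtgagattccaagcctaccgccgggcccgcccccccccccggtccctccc
Tead3 (chr17:28350818-28351055, minus strand): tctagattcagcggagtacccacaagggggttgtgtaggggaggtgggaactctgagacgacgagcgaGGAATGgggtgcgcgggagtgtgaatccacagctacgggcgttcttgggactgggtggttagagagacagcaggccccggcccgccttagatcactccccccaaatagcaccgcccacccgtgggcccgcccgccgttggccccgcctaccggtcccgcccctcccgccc
Vgll3 (chr16:65814939-65815188, plus strand): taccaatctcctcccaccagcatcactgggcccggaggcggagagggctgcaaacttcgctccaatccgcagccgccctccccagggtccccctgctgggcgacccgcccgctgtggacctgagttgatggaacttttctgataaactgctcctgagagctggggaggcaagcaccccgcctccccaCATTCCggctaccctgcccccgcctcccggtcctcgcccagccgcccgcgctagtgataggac
Of the 10 members, 8 had a RefSeq window. In 4 of these (Yap1, Wwtr1, Tead3 and Amotl2) at least 1 window held the letters on either strand, against 14.4% of all genes. By window, 6 of the 12 windows of members held them, against 12.6% of all windows of 250 bases. The Wwtr1 windows overlap and share the same site. The letters began 141 bases before the start in Yap1, 136 bases in Wwtr1 and 182 bases in the Tead3 window printed above. The Vgll3 window held CATTCC from 63 bases before the start, and the Tead2 window held neither form. A match of 6 letters is a description of the sequence and no binding was measured.

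The libraries held 18240110 to 20879405 counts. Levels are given as CPM, a gene's counts relative to the library total, scaled by TMM factors that correct for library composition, and 3 counts, the floor used here, were worth 0.144 to 0.164 CPM. Dpp4, the gene of the sorted protein, had 64.7 ± 35.4 CPM (SD, n = 2) in DPPIV- and 651 ± 108 CPM in DPPIV+ FAPs, and the FAP marker Pdgfra had 1567 ± 128 and 1200 ± 57.7 CPM. Of the 5 FAP markers listed, edgeR called 3 lower in DPPIV+ FAPs, Pdgfra among them (adjusted p = 7.56e-07), and 1 higher. The higher one was Ly6a, the gene of Sca1, at 981 ± 25.6 and 1464 ± 10.3 CPM. The 6 mural cell markers summed to 121 and 123 CPM in the DPPIV- libraries and to 51.2 and 63.5 CPM in the DPPIV+ libraries. EdgeR called 5 of the 6 lower in DPPIV+ FAPs, against 17.2% of all genes tested, and of these DESeq2 did not call Rgs5 (adjusted p = 0.439) and Mcam (adjusted p = 0.209). The 4 satellite cell markers summed to 89.9 and 93.8 CPM against 26.7 and 33.5 CPM, of which Vcam1 made up 88.3 ± 1.38 and 26.0 ± 3.68 CPM, while the defining markers Pax7 and Myf5 stayed under 1 CPM. The 5 macrophage and leukocyte markers summed to 294 and 173 CPM against 182 and 166 CPM. The 5 blood endothelial markers summed to 64.4 and 36.5 CPM against 40.9 and 34.8 CPM. EdgeR called 3 of 5 lower in each list, and DESeq2 called none of these (adjusted p = 0.182 to 0.667). In mouse 2 their log2 ratios were -0.001 for Csf1r, -0.04 for Lyz2, -0.0006 for Pecam1 and 0.10 for Kdr, while Adgre1 (-0.37) and Cdh5 (-0.32) were lower there too. The 4 tenocyte markers summed to 1631 and 2132 CPM in DPPIV- and 1213 and 2322 CPM in DPPIV+ FAPs, most of it Thbs4 (1849 ± 350 and 1685 ± 752 CPM), which was called lower by edgeR (adjusted p = 0.026) but not by DESeq2 (adjusted p = 0.851) and was lower in 1 of the 2 mice. The other 3 tenocyte markers were called higher in DPPIV+ FAPs, Tnmd at 28.8 ± 2.95 and 71.3 ± 25.8 CPM, Scx at 1.30 ± 0.62 and 5.76 ± 2.96 CPM and Mkx at 2.02 ± 0.90 and 5.56 ± 3.00 CPM. Markers of lymphatic endothelium, myofibres, glia and perineurium summed to 3.73 to 63.9 CPM, with 2 genes called lower. No list had a marker at 0 in every library. The part of these other cells in the differences below was not tested, and in bulk samples fewer cells of a type and less RNA per cell cannot be told apart.

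Of the 10 members, 9 passed the filter of 2 CPM in at least 2 libraries, and 8 of these differed between the populations at an adjusted p under 0.05 in edgeR's quasi-likelihood test with mouse as a block. Tead1, Lats1, Lats2 and Amotl2 were higher in DPPIV+ FAPs, while Yap1, Wwtr1, Tead2 and Tead3 were lower. Amotl1 did not pass the test, and Tead4 was under the filter. Of all 11588 genes tested, 33.0% were called, 15.9% higher and 17.2% lower in DPPIV+ FAPs. Apart from Tead2 the called changes were small, between 1.15 and 1.29 times, and the median size of the log2 fold change was 0.30 over the 9 members against 0.16 over all genes tested. Both libraries of one population lay above both of the other for 8 of the 9 members tested, and for 56.3% of all genes tested. With DESeq2's Wald test, 4 members were called (Wwtr1, Tead2, Lats2 and Amotl2) and 16.6% of all genes. The members were chosen with earlier results of these data known. Their shares and sizes therefore describe them and cannot show an excess over other genes. With 2 mice, an exact paired permutation test of a single gene cannot go below 0.5, so each p rests on the spread that the model shared over all genes.

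**Figure D1:**
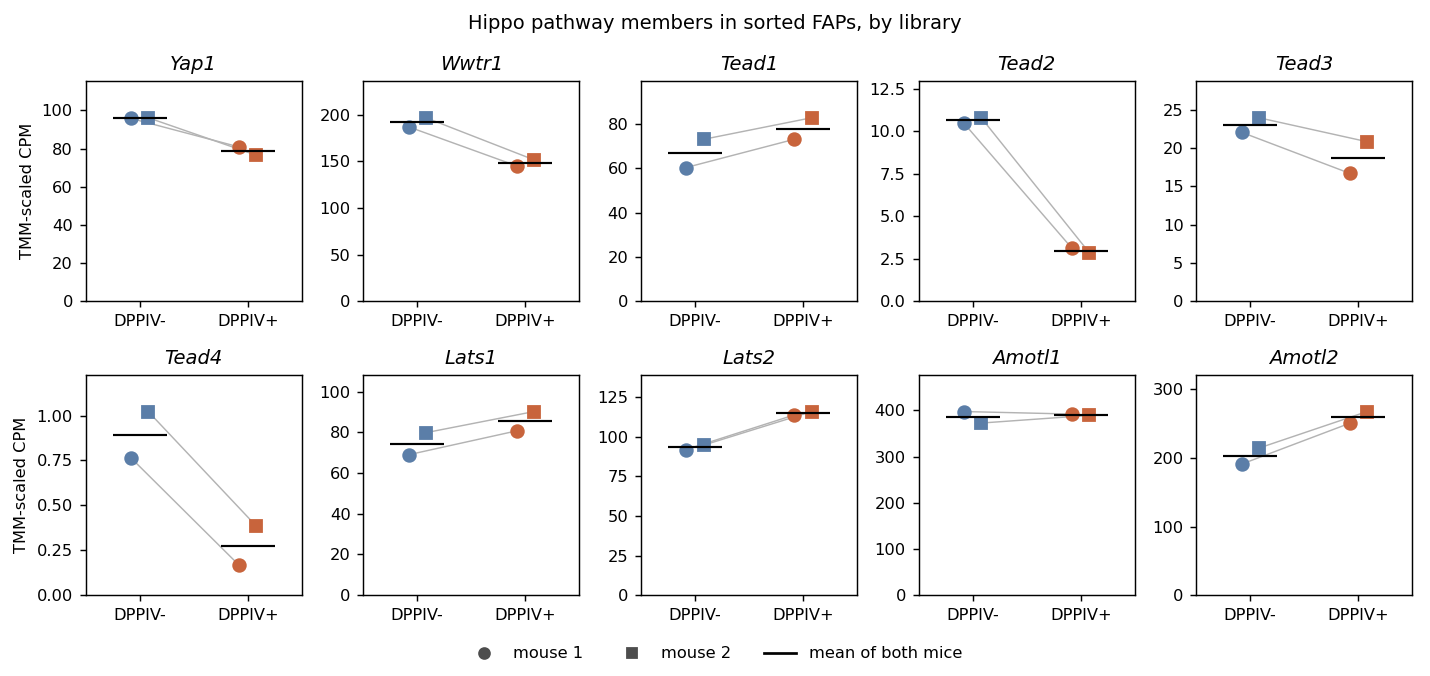
TMM-scaled CPM (vertical axes, from 0, each with its own range) of the 10 members in DPPIV- and DPPIV+ FAPs, with a circle for mouse 1, a square for mouse 2, a grey line joining the libraries of one mouse and a black bar at the mean. The DPPIV+ library was the lower one of both mice for Yap1, Wwtr1, Tead2, Tead3 and Tead4 and the higher one for Tead1, Lats1, Lats2 and Amotl2, while Amotl1 had 397 and 372 CPM in DPPIV- and 392 and 389 CPM in DPPIV+ FAPs.

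Both co-activators were lower in DPPIV+ FAPs. Wwtr1, which encodes TAZ, had 187 CPM in mouse 1 and 197 CPM in mouse 2 in the DPPIV- libraries, and 145 and 152 CPM in the DPPIV+ libraries. The 2 populations did not overlap, and the log2 ratio was nearly equal in the mice, -0.37 and -0.38. The fitted log2 fold change was -0.37 (SE 0.07, edgeR's quasi-likelihood adjusted p = 1.96e-07), or 1.29 times more in DPPIV- FAPs. Yap1 had 95.8 and 96.1 CPM in DPPIV- FAPs and 80.8 and 76.5 CPM in DPPIV+ FAPs, again without overlap. Its fitted log2 difference was -0.29 (SE 0.07, edgeR's quasi-likelihood adjusted p = 7.08e-05), with log2 ratios of -0.24 and -0.33 in the mice. DESeq2's Wald test called Wwtr1 (adjusted p = 0.00247) and did not call Yap1 (adjusted p = 0.0877). An antisense transcript, Gm20416, shares 116 exonic bases with Yap1, and whether counting used strand is not given in the sources used here.

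There were 1.95 and 2.05 Wwtr1 counts for each Yap1 count in DPPIV- FAPs, and 1.80 and 1.98 in DPPIV+ FAPs. The populations overlapped, and within each mouse the ratio was slightly lower in DPPIV+ FAPs, at 0.92 and 0.97 times that of the DPPIV- library, which was not tested. Per kilobase of exon, Yap1 made up 20.5% ± 0.54 (SD, n = 2) of the summed level of the pair in DPPIV- and 21.5% ± 1.18 in DPPIV+ FAPs. The summed level itself was 50.5 ± 1.47 CPM per kilobase in DPPIV- and 39.6 ± 0.63 in DPPIV+ FAPs.

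Of the TEAD genes, whose proteins bring YAP and TAZ to DNA, Tead2 differed most and Tead1 moved the opposite way. Tead2 had 10.5 and 10.8 CPM in DPPIV- FAPs, from 219 and 211 counts. In DPPIV+ FAPs it had 3.11 and 2.85 CPM, from 56 and 52 counts, so the libraries of the populations lay far apart in both mice. The fitted log2 difference was -1.83 (SE 0.20, edgeR's quasi-likelihood adjusted p = 2.84e-19), or 3.56 times more in DPPIV- FAPs, and Tead2 was also called by DESeq2's Wald test (adjusted p = 5.14e-07) and by a test against a change of 1.5 times. The summed mural cell markers, at 121 and 123 CPM against 51.2 and 63.5 CPM, were lower in the same libraries, and their part in the Tead2 difference was not tested. Cd37, a leukocyte gene on the other strand that shares 13 exonic bases with Tead2, had 22 to 48 counts in a library.

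Tead1 had 60.3 and 73.0 CPM in DPPIV- FAPs and 73.0 and 82.7 CPM in DPPIV+ FAPs. The populations only just failed to overlap, mouse 2 was higher than mouse 1 in each, and within each mouse the DPPIV+ library was higher, with log2 ratios of 0.28 and 0.18. The fitted log2 difference was 0.23 (SE 0.07, edgeR's quasi-likelihood adjusted p = 0.00285). The call was lost with DESeq2's Wald test (adjusted p = 0.277) and without the mouse block (edgeR's adjusted p = 0.241). Tead3 had 22.1 and 24.0 CPM in DPPIV- and 16.7 and 20.8 CPM in DPPIV+ FAPs, lower in both mice, with a log2 fold change of -0.30 (SE 0.10, edgeR's quasi-likelihood adjusted p = 0.0165). This call was lost with DESeq2's Wald test (adjusted p = 0.439), without the mouse block (edgeR's adjusted p = 0.195) and after offsets for GC content and length (edgeR's adjusted p = 0.0721). Tead4 was close to the detection floor, with 16 and 20 counts in DPPIV- and 3 and 7 counts in DPPIV+ FAPs. The ratio of its summed counts, scaled for library size, was 3.22 in favour of DPPIV- FAPs (exact 95% interval 1.57 to 7.28, for counting error only), and in a fit without the filter its adjusted p in edgeR's quasi-likelihood test was 0.0799.

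The makeup of the TEAD family differed between the populations. Per kilobase of exon, Tead2 was 20.6% ± 1.39 (SD, n = 2) of the summed TEAD level in DPPIV- FAPs and 6.80% ± 1.11 in DPPIV+ FAPs. Tead1 went from 45.3% ± 2.09 to 62.2% ± 0.89, and Tead3 was at 31.8% ± 0.97 and 30.2% ± 1.62. There were 5.76 and 6.77 Tead1 counts per Tead2 count in DPPIV- FAPs, against 23.5 and 29.0 in DPPIV+ FAPs. The summed level was 10.1 and 11.5 CPM per kilobase in DPPIV- and 8.57 and 9.90 in DPPIV+ FAPs, lower in both mice and without overlap. That drop holds for levels divided by length. Without the division Tead1, which was higher in DPPIV+ FAPs, made up 65.8% of the TEAD level in DPPIV- and 78.0% in DPPIV+ FAPs. In CPM without the division, the rise of Tead1 offset most of the summed fall of Tead2, Tead3 and Tead4 in each mouse. A drop in all TEAD transcripts together is therefore not shown. The shares are descriptions without a test.

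**Figure D2:**
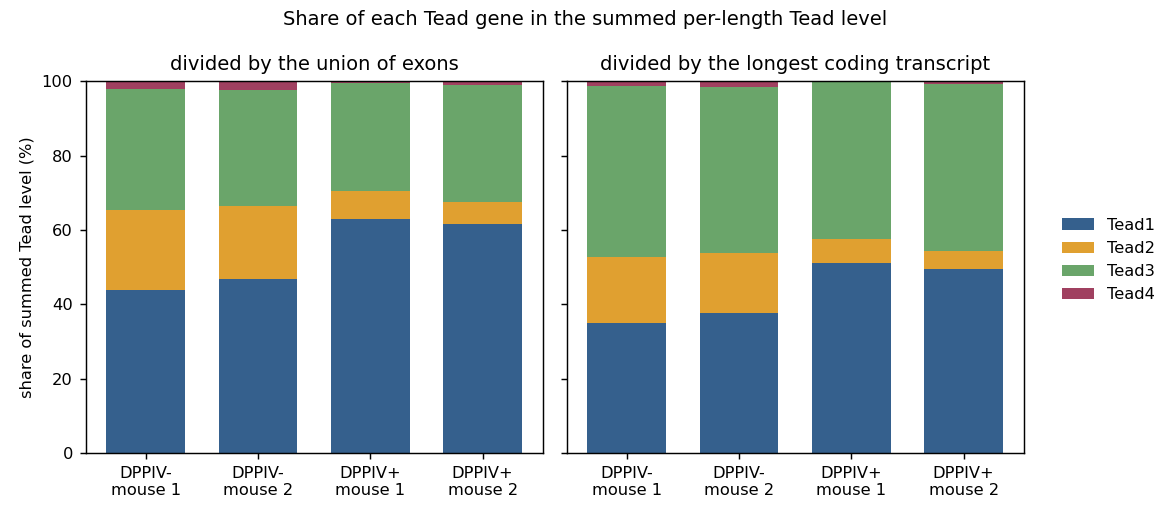
Share of each Tead gene in the summed per-length Tead level (vertical axis, in percent) in each library, with levels divided by the union of exons on the left and by the longest coding transcript on the right. On the left the Tead2 share fell from 21.6% and 19.6% in DPPIV- to 7.58% and 6.02% in DPPIV+ FAPs and on the right from 17.8% and 16.3% to 6.39% and 5.01%, while the order of Tead1 and Tead3 in DPPIV- FAPs depends on the length used.

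Both LATS kinases, which phosphorylate YAP and TAZ, were slightly higher in DPPIV+ FAPs. Lats2 had 91.9 and 94.7 CPM in DPPIV- and 114 and 116 CPM in DPPIV+ FAPs, with no overlap and log2 ratios of 0.31 and 0.29. Its fitted log2 difference was 0.30 (SE 0.07, edgeR's quasi-likelihood adjusted p = 2.96e-05, DESeq2's Wald test adjusted p = 0.0456). Lats1 had 69.1 and 79.9 CPM in DPPIV- and 80.8 and 90.3 CPM in DPPIV+ FAPs, higher in both mice while the mice differed by about as much as the populations did. Its fitted log2 difference was 0.20 (SE 0.07, edgeR's quasi-likelihood adjusted p = 0.00866), and the call was lost with DESeq2's Wald test (adjusted p = 0.355), without the mouse block (edgeR's adjusted p = 0.238) and with upper-quartile scaling (edgeR's adjusted p = 0.0528). Lats2 shares 2955 exonic bases with Gm49361, a gene model on the same strand that is no row of the count table, so how reads in that stretch were assigned is not known. Per kilobase of exon, Lats1 was 43.2% ± 2.02 (SD, n = 2) of the summed LATS level in DPPIV- and 41.5% ± 1.59 in DPPIV+ FAPs. Within the mice it went from 41.8% to 40.4% and from 44.6% to 42.7%, a small difference in the same direction that was not tested.

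The angiomotin family genes differed from each other. Amotl2 had 191 and 215 CPM in DPPIV- and 251 and 268 CPM in DPPIV+ FAPs, without overlap, with log2 ratios of 0.39 and 0.32. Its fitted log2 difference was 0.36 (SE 0.07, edgeR's quasi-likelihood adjusted p = 8.41e-07, DESeq2's Wald test adjusted p = 0.00214). Amotl1, which binds YAP like Amotl2, had 397 and 372 CPM in DPPIV- and 392 and 389 CPM in DPPIV+ FAPs. Its mice moved in opposite directions, and the log2 fold change was 0.02 (SE 0.07, edgeR's quasi-likelihood adjusted p = 0.861). There were 2.08 and 1.74 Amotl1 counts per Amotl2 count in DPPIV- and 1.56 and 1.45 in DPPIV+ FAPs, lower in both mice. Amotl2 and Lats2 are also known as target genes of YAP and TAZ.

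**Figure D3:**
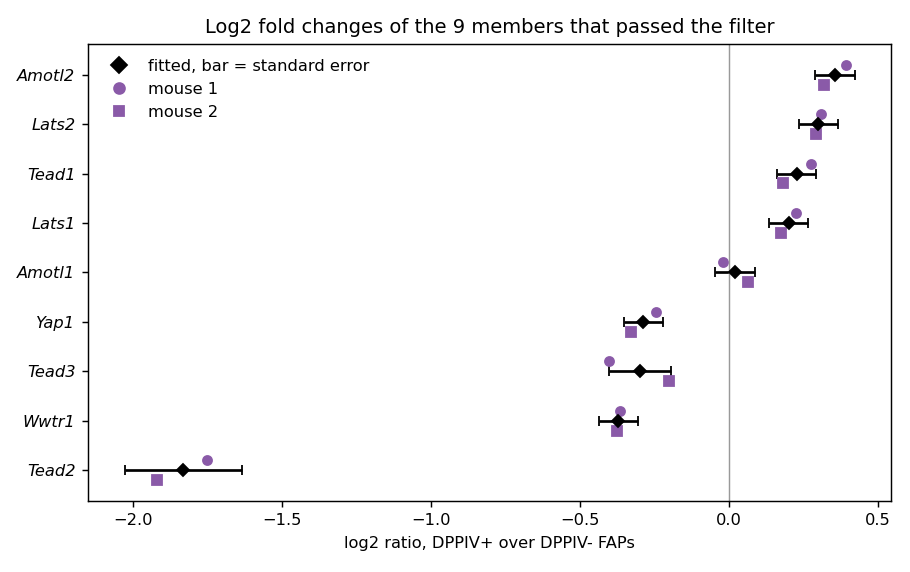
Log2 ratio of DPPIV+ over DPPIV- FAPs (horizontal axis) of the 9 members that passed the filter, with the fitted value and its standard error as a black diamond and bar, and the ratio within mouse 1 (circle) and mouse 2 (square). Tead2 stood at -1.83, the other 7 called members lay between -0.37 and 0.36, and the mice agreed in direction for each of the 9 except Amotl1.

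Divided by the length of the union of exons, so that genes can be compared, the members kept nearly the same order in both populations. In DPPIV- FAPs, Wwtr1 (40.2 ± 1.44 CPM per kilobase), Amotl1 (38.2 ± 1.75) and Amotl2 (32.2 ± 2.63) came first, and the ranges of Wwtr1 and Amotl1 overlapped. Lats2 (13.4 ± 0.28), Yap1 (10.4 ± 0.03) and Lats1 (10.2 ± 1.05) followed, and Yap1 lay within the range of Lats1. The TEAD genes were lowest, with Tead1 at 4.91 ± 0.66, Tead3 at 3.43 ± 0.20, Tead2 at 2.22 ± 0.05 and Tead4 at 0.25 ± 0.05 CPM per kilobase. In DPPIV+ FAPs, Amotl2 (41.2 ± 1.92) and Amotl1 (38.8 ± 0.20) stood above Wwtr1 (31.1 ± 0.96), Lats1 (11.7 ± 0.92) stood above Yap1 (8.50 ± 0.33), and no neighbours overlapped. These ranks depend on the transcript taken as the gene's length. With the longest coding transcript, Amotl2 was first in both populations, Yap1 (23.0 ± 0.06) passed Lats2 in DPPIV- FAPs, and Tead3 (8.30 ± 0.48) passed Tead1 (6.69 ± 0.90) there.

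The rest of the pathway was read from a list of 45 further regulators, of which 39 passed the filter. Of these, 8 were higher and 9 lower in DPPIV+ FAPs, 43.6% of those tested against the 33.0% of all genes, and the median log2 fold change of the list was -0.01. The 6 under the filter (Wwc1, Map4k1, Fat2, Fat3, Vgll1 and Vgll2) had 0 to 38 counts in a library, and Fat2 and Vgll1 had 0 in all 4. DESeq2's Wald test called 3 higher and 4 lower, 17.9% of those tested and close to the 16.6% of all genes. This list too was chosen with earlier results known, so its shares and those of its groups below cannot show an excess. Upper-quartile scaling, which shifted the median of all genes by -0.04 on the log2 scale, turned the split of 8 higher and 9 lower into 4 and 10.

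Vgll3, a vestigial-like co-factor that binds TEAD proteins in place of YAP and TAZ, had the largest change of the list. It had 39.3 and 31.4 CPM in DPPIV- and 108 and 93.3 CPM in DPPIV+ FAPs, far apart in both mice. The fitted log2 difference was 1.51 (SE 0.07, edgeR's quasi-likelihood adjusted p = 1.73e-99), or 2.85 times more in DPPIV+ FAPs, and it was called in all 12 other settings tested. Vgll4, which competes with YAP for TEAD proteins, had 24.4 and 26.5 CPM in DPPIV- and 18.9 and 22.2 CPM in DPPIV+ FAPs. Its fitted log2 difference was -0.31 (SE 0.10, edgeR's quasi-likelihood adjusted p = 0.00782), and it was not called by DESeq2's Wald test (adjusted p = 0.364).

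In the core kinase module, 11 of 12 genes passed the filter, 3 were higher and 2 were lower, which is 45.5% of those tested against 33.0% of all genes. DESeq2's Wald test called 3 of the 11. Sav1, the scaffold that joins MST kinases to LATS, had 111 and 106 CPM in DPPIV- and 140 and 134 CPM in the DPPIV+ libraries (log2 fold change 0.33, SE 0.07, edgeR's quasi-likelihood adjusted p = 2.71e-06). Stk38, a kinase of the same family as LATS, went from 109 and 114 CPM to 143 and 141 CPM (log2 fold change 0.35, edgeR's quasi-likelihood adjusted p = 1.06e-06). Nf2, whose protein merlin recruits LATS to the membrane, rose by less (log2 fold change 0.19, edgeR's quasi-likelihood adjusted p = 0.0128, DESeq2's Wald test adjusted p = 0.396). Frmd6, a membrane-associated FERM protein upstream of the kinases, was lower, at 337 and 360 CPM against 268 and 278 CPM (log2 fold change -0.35, edgeR's quasi-likelihood adjusted p = 1.43e-06). Amot, the founding angiomotin, was at 27.2 and 27.3 CPM against 23.4 and 22.9 CPM, and its call was at the threshold (log2 fold change -0.23, edgeR's quasi-likelihood adjusted p = 0.0451) and was lost in 9 of the 12 other settings tested. The MST kinases themselves did not pass the test, with log2 fold changes of 0.04 for Stk3 and -0.03 for Stk4, nor did Mob1a (0.17), Mob1b (-0.09), Stk38l (0.17) and Wwc2 (0.10). Sav1 shares 1336 exonic bases with Atl1 on the other strand, which had 76 to 79 counts in a library.

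Among the other regulators Ptpn14 and Dchs1 had the largest decreases. Ptpn14, a phosphatase that binds YAP and is itself a YAP target gene, had 26.7 and 33.8 CPM in DPPIV- and 12.6 and 16.4 CPM in the DPPIV+ libraries (log2 fold change -1.06, SE 0.10, edgeR's quasi-likelihood adjusted p = 4.6e-23). Dchs1, an atypical cadherin that binds FAT4, had 105 and 146 CPM in DPPIV- and 63.5 and 91.9 CPM in DPPIV+ FAPs. Mouse 2 was the higher one in both populations, and the log2 ratios of Dchs1 were -0.73 and -0.67 (fitted -0.70, SE 0.07, edgeR's quasi-likelihood adjusted p = 1.93e-24, and 0.0509 without the mouse block). Of the 7 atypical cadherin and polarity genes tested, 3 were called, all lower, and the other 4 did not pass the test. This is 42.9%, against 33.0% of all genes called in either direction and 17.2% called lower. The lower ones beside Dchs1 were Fat1 and Fat4, both with a log2 fold change of -0.30 and both named after their values were seen. Fat4 was not called by DESeq2's Wald test (adjusted p = 0.146), and neither was called by edgeR without the mouse block (adjusted p = 0.123 for Fat1 and 0.094 for Fat4). Of the kinases that can activate LATS apart from MST, Tnik fell (log2 fold change -0.60, edgeR's quasi-likelihood adjusted p = 0.000183) and Taok3 rose (0.33, edgeR's quasi-likelihood adjusted p = 6.21e-06), and DESeq2's Wald test called neither, with adjusted p = 0.0931 for Tnik and adjusted p = 0.0543 for Taok3.

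Genes known as YAP and TAZ targets moved in both directions. Of 21 target genes that are not members, 20 passed the filter, 8 were higher and 8 lower in DPPIV+ FAPs (80% of those tested, against 33.0% of all genes, 15.9% higher and 17.2% lower), and the median log2 fold change was 0.00. DESeq2's Wald test called 6 higher and 6 lower, 60% of those tested against 16.6% of all genes. The median size of the log2 fold change was 0.55, against 0.16 over all genes. Because the list was chosen with earlier results of these data known, these shares and sizes describe the list and cannot show an excess over other genes.

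Of the targets that rose, Nt5e, which encodes the ectoenzyme CD73, had 6.02 and 4.75 CPM in DPPIV- and 13.1 and 17.1 CPM in the DPPIV+ libraries (log2 fold change 1.47, SE 0.16, edgeR's quasi-likelihood adjusted p = 2.29e-19). Axl, a receptor tyrosine kinase, had 1788 and 1658 CPM in DPPIV- and 2875 and 2817 CPM in the DPPIV+ libraries (log2 fold change 0.73, SE 0.08, edgeR's quasi-likelihood adjusted p = 5.86e-21). The kinase gene Nuak2 (0.84), Myof (0.66), which encodes the membrane protein myoferlin, and Crim1 (0.51), a membrane protein that binds BMPs, rose as well, each in both mice. Ankrd1, a widely used YAP target, was under the filter, with 2 and 3 counts in DPPIV- and 15 and 13 counts in DPPIV+ FAPs. The scaled ratio of its summed counts was 6.26 in favour of DPPIV+ FAPs (exact 95% interval 2.39 to 20.8, for counting error only), and in a fit without the filter its adjusted p in edgeR's quasi-likelihood test was 0.0198.

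Of the targets that fell, F3, which encodes tissue factor, had 274 and 326 CPM in DPPIV- and 105 and 121 CPM in the DPPIV+ libraries (log2 fold change -1.40, SE 0.07, edgeR's quasi-likelihood adjusted p = 4.47e-89), or 2.64 times more in DPPIV- FAPs. Ptpn14 (-1.06, above), Dock5 (-0.95), Arhgef17 (-0.71) and Fjx1 (-0.61) followed. Fjx1 was not called by DESeq2's Wald test (adjusted p = 0.152). Without the mouse block edgeR called neither Dock5 (adjusted p = 0.0711) nor Fjx1 (adjusted p = 0.0533). Ccn2 fell in both mice, from 400 and 641 CPM to 256 and 446 CPM (log2 fold change -0.58, edgeR's quasi-likelihood adjusted p = 2.55e-16). Mouse 2 was the higher one in both populations, the populations overlapped, and the call was lost without the mouse block (edgeR's adjusted p = 0.25). Ccn1 did not pass the test, with 728 and 684 CPM in DPPIV- and 756 and 598 CPM in DPPIV+ FAPs, and its mice moved in opposite directions (log2 fold change -0.07, SE 0.07, edgeR's quasi-likelihood adjusted p = 0.509). The commonly used targets Ccn1, Ccn2 and Ankrd1 did not move together in these libraries.

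**Figure D4:**
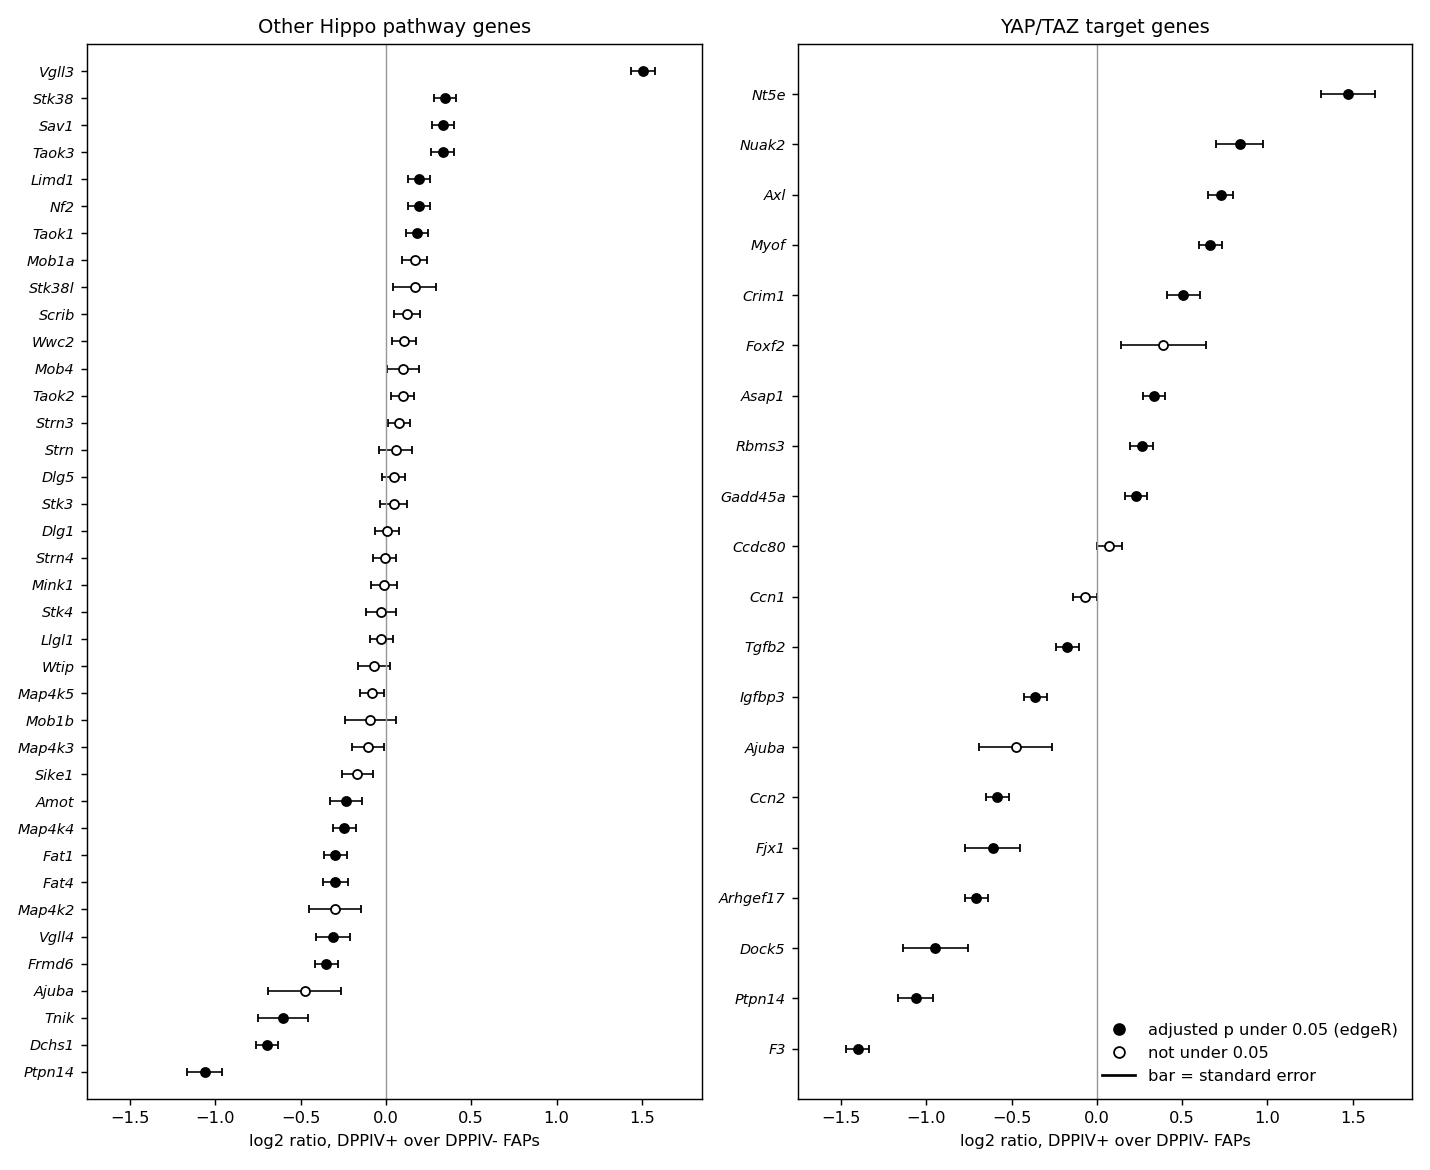
Log2 ratio of DPPIV+ over DPPIV- FAPs (horizontal axes) with its standard error for 38 other pathway genes and the 20 target genes that passed the filter, with Ajuba and Ptpn14 on both lists. Filled points passed edgeR's test at an adjusted p under 0.05, 16 on the left, where Vgll3 stands alone at 1.51, and 16 on the right, spread from F3 at -1.40 to Nt5e at 1.47.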

How the data were processed

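FAPs of 2 mice were sorted and sequenced as paired-end mRNA libraries. Per the submitters' processing notes and the study's methods, reads were demultiplexed with bcl2fastq 2.20, aligned to mm10 with STAR and counted per gene with RnaReadCounter, and the authors deposited raw counts per gene symbol. The annotation release and the strand setting of the counting are not given in the sources used here, and the labels and the methods name different stranded kits and different extents of the dissected muscle.

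From the deposited counts (18240110 to 20879405 per library), the 11588 of 24421 genes that reached 2 CPM in 2 or more libraries entered the tests, TMM factors were computed, and DPPIV+ was compared with DPPIV- in edgeR 4.0.16 (R 4.3.3) by a two-sided quasi-likelihood F test with mouse and cell type in the model and Benjamini-Hochberg adjustment over all genes kept. The prior degrees of freedom were infinite, so each gene took the spread of the abundance trend. The sample titles give each mouse 1 library of each population, and across genes the mouse difference in DPPIV- FAPs correlated with that in DPPIV+ FAPs (Pearson's r = 0.44). Alternatives included DESeq2 1.42.0 and loess offsets for GC content and length with the block. The script was tested on simulated counts. Standard errors are the log2 fold change divided by the square root of F.

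Exon lengths, GC content and overlaps came from GENCODE M21, matched by symbol for 24020 genes, and promoter windows from RefSeq on GRCm38.p6. Transcripts of the members were compared with all others by BLAST 2.17.0 (97% identity over 100 bases), which found only Gm49361 for Lats2 and Gm20416 for Yap1. Other named genes also share exonic bases with the other strand, among them Fat4 (1209, C230034O21Rik), Ccn2 (665, Gm15270), Fat1 (487, Gm2366) and Crim1 (123, Fez2). Fez2 had 697 to 889 counts in a library and Crim1 356 to 546. The part of such overlaps in the differences was not tested.

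The members and lists were chosen with earlier results of these data known. Named genes are the 10 members, Ccn1, Ccn2, Ankrd1, the 5 largest increases and decreases of each list among genes past the threshold that moved alike in both mice, the core kinase and TEAD co-factor genes that passed the filter, and Dpp4 and Pdgfra. The values of 1 of these genes are not reported here.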

Additional observations from a re-analysis of the deposited data

How the results depend on the processing

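Of the 40 called genes that are members or on the lists, 0 changed direction in any alternative, single mice included. DESeq2's Wald test called 1918 genes in place of 3826, 4 members in place of 8 and 7 regulators in place of 17. Without the mouse block (the paired term), 2120 genes, 5 members, 7 regulators and 9 target genes in place of 16 were called. A test against a change of 1.5 times called 1092 genes, 1 member (Tead2), 2 regulators and 3 target genes. The last test asks for a change above 1.5 times and not for any change. The cause of the differences with DESeq2 and without the block was not tested. RLE and upper-quartile factors, the filters, the likelihood ratio test, a threshold of 0.01, robust moderation and the GC and length offsets kept each count within 1.5 times. Shares of a family moved with the length used. Not divided by length, in DPPIV- and then DPPIV+ FAPs, Yap1 made up 33.3% and 34.6% of its pair, Tead1 65.8% and 78.0% of the TEADs, and Amotl1 65.5% and 60.1% of its pair. Per length of the longest coding transcript, Yap1 made up 36.0% and 37.4%, Tead1 36.3% and 50.3%, Lats1 36.4% and 34.9%, and Amotl1 48.4% and 42.7%. Leaving out the block changed the calls of Tead1, Tead3 and Lats1 among the members. With 2 mice, leaving out one leaves no test, and the log2 ratios of the single mice are given beside the members. Tead2 was called in all 12 alternatives that give a test, Wwtr1, Lats2 and Amotl2 were lost in 1 of them each, Yap1 in 2, Tead1 in 3, Lats1 in 4 and Tead3 in 5, the threshold of 0.01 among them. Depth limits Tead4 and Ankrd1, which had 20 counts or fewer in every library.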
